A study of Homo sapiens with 9 samples.

Results

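The 7 genes ACAT2, HMGCS1, MVK, PMVK, MVD, IDI1 and FDPS encode enzymes that carry acetyl-CoA to farnesyl diphosphate, on both sides of the step that statins block. They were taken by name as steps of the pathway, with earlier results of these data known, and are 7 of the 14884 named genes on the arrays. Total RNA of the human neuroblastoma cell line SMS-KCNR, an established line from a tumour of the sympathetic nervous lineage, was hybridised to 9 Affymetrix whole-transcript arrays. Of these, 3 came from cells given simvastatin (5 µM) together with mevalonate (2 mM), 3 from cells given simvastatin alone at the same dose and 3 from cells given the solvent DMSO, all after 30 hours. Each group is a single tumour line in serum-containing medium. The study calls its samples independent without saying that they were separate cultures, so that p-values here measure how far these samples differ, and part of that can be technical. Values are the deposited log2 values of a probeset, a set of probes read as 1 feature. They have no detection call, and the level of a gene cannot be set against that of another gene.

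In the mevalonate pathway, ACAT2 joins a pair of acetyl-CoA molecules and HMGCS1 adds another to give HMG-CoA. HMG-CoA reductase, the enzyme that simvastatin inhibits, turns it into mevalonate. Mevalonate is phosphorylated by MVK and then by PMVK, and decarboxylated by MVD to isopentenyl diphosphate, which IDI1 isomerises and FDPS assembles into farnesyl diphosphate. Farnesyl diphosphate feeds sterols, protein prenylation, ubiquinone and dolichol. When sterols are scarce, SREBP transcription factors leave the endoplasmic reticulum and activate sterol synthesis genes, usually with NF-Y, which binds the CCAAT box, and Sp1, which binds GC boxes. Added mevalonate enters the pathway beyond the blocked step. The gene of HMG-CoA reductase itself is not analysed here.

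To show what letters lie upstream of these genes, promoter windows were taken from RefSeq (GRCh38.p14), from 250 bases before to 50 bases after each annotated start, and 6 of the 7 genes had one. Printed 5′ to 3′ along each gene's strand are positions -210 to -41, or -220 to -41 for IDI1, which hold the CCAAT boxes described next. Capitals mark CCAAT or its reverse complement ATTGG and, in MVK, 1 match to TCACNCCA, the core of a sterol regulatory element.
HMGCS1, chr5:43313453-43313622, minus strand: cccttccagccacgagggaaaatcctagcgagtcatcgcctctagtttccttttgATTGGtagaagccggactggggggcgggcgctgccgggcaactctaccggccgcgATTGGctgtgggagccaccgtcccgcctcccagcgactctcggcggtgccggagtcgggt
MVK, chr12:109573584-109573753, plus strand: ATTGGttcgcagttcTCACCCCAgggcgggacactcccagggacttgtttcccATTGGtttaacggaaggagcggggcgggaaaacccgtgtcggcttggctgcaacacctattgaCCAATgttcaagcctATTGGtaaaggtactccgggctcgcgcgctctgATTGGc
PMVK, chr1:154936760-154936929, minus strand: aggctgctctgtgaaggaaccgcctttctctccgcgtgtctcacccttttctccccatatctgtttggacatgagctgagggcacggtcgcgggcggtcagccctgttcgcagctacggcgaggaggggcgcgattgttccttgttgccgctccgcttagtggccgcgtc
MVD, chr16:88663132-88663301, minus strand: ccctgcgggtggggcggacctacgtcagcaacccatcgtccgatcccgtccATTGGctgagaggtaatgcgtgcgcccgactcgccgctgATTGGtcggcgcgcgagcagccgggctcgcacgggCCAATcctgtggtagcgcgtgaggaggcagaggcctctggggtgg
IDI1, chr10:1049160-1049339, minus strand: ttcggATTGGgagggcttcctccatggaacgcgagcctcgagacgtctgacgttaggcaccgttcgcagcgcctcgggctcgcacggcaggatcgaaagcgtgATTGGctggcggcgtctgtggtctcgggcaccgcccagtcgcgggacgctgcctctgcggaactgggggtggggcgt
FDPS, chr1:155308656-155308825, plus strand: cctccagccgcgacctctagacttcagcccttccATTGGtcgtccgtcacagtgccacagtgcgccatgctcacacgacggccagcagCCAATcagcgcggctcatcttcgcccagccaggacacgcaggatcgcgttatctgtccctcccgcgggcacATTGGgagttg

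CCAAT on either strand occurred at least once in 34.6% of all 35116 windows, at least 2 times in 10.8% and at least 3 times in 3.26%. The MVK window held 5 matches, the MVD and FDPS windows 3 each, and the HMGCS1 window shown 2. The PMVK window held 0, as did the window of a second HMGCS1 start. IDI1 has 3 annotated starts, with 0, 3 and 2 matches, and the window with 2 is printed. The stretch upstream of the start with 3 lies downstream of the printed start. The window with 0 lies at the 5′ end of the annotated gene and is not printed. The printed IDI1 and HMGCS1 stretches are thus those of starts with CCAAT matches. Neighbouring matches had no common spacing. They began 55 bases apart in HMGCS1, 53, 63, 15 and 33 in MVK, 39 and 35 in MVD, 98 in the printed IDI1 window and 54 and 71 in FDPS. The sterol core TCACNCCA, present in 3.95% of all windows, occurred in the MVK window alone among those of the 6 genes, and the longer form TCACNCCAC, present in 1.13%, in none. The GC box GGGCGG, present in 45.0%, occurred in every window of the 6 genes. The longer sterol form contains the shorter one, and 2 CCAAT matches of IDI1 share bases. The motifs were chosen after the windows had been read, and a match is a description of letters and not a binding site. Nor does a missing match to these fixed letters show that an element is absent.

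**Figure D1:**
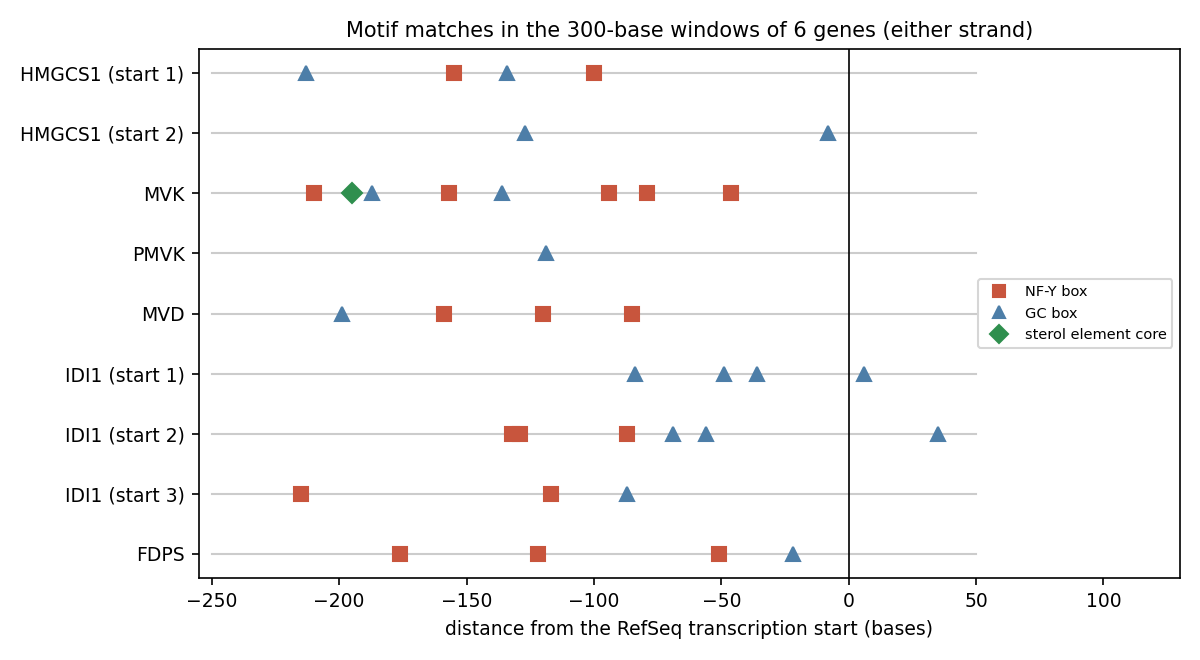
Motif matches on either strand in each 300-base RefSeq window of 6 genes, drawn by distance in bases from the annotated transcription start (vertical line). Squares are CCAAT boxes, triangles GC boxes and the diamond the sterol element core. The PMVK window has 0 CCAAT matches and the MVK window 5.

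The genes lie on 6 chromosomes, with PMVK at chr1:154924740-154942658 and FDPS at chr1:155308866-155320665 sharing chromosome 1. ACAT2 lies at chr6:159762045-159779112, HMGCS1 at chr5:43287470-43313412, MVK at chr12:109573272-109598125, MVD at chr16:88651940-88663091 and IDI1 at chr10:1039152-1056704 (GRCh38.p14). The annotated MVK, PMVK and IDI1 genes begin upstream of their printed stretches, which therefore need not be the 5′ ends of these genes. ACAT2, MVK, IDI1 and FDPS overlap other genes, and no source used here says whether the arrays separate the strands.

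Arrays of the same group correlated across genes with r of 0.994 to 0.996, and the arrays' medians lay between 5.17 and 5.21. All 11 measured markers of the sympathetic lineage (of 14 listed) were above the median of all probesets (5.19) on every array, as were 5 of 9 measured markers of other cell types (of 17 listed). PECAM1, an endothelial gene, and ALB, the liver's albumin gene, were below it on every array. Only 30.0% of the probesets behind this median were named. The share of all named genes above it on every array was not counted, so these counts do not by themselves identify the cells. Averaged over the 11 lineage markers, the arrays gave 10.13 to 10.18 with simvastatin plus mevalonate, 9.84 to 9.87 with simvastatin and 10.21 to 10.22 with DMSO. Of these markers 7 fell and 0 rose with simvastatin against DMSO, where 7.38% of all genes fell and 5.98% rose. The 9 markers of other cells averaged 6.04 to 6.10 with simvastatin plus mevalonate, 5.83 to 5.93 with simvastatin and 6.05 to 6.09 with DMSO. With simvastatin against DMSO 1 of them rose, the epithelial gene EPCAM (0.41), and 2 fell, the fibroblast matrix genes LUM (-1.14) and DCN (-0.98). Whether these shifts bear on the enzyme genes was not tested. Fewer cells of a kind and less RNA per cell cannot be told apart in such bulk samples.

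The first comparison asks what simvastatin did to the enzyme genes. Of the 7 genes 5 rose, ACAT2, HMGCS1, MVD, IDI1 and FDPS, and 0 fell (limma, Benjamini-Hochberg adjusted p under 0.05 over 14884 genes). At an unadjusted p under 0.05, for which the share over all genes was not counted, 6 were higher and 0 lower. By adjusted p 13.4% of all genes were called, 5.98% higher and 7.38% lower. Groups that did not overlap were found for 6 of the 7 genes above and 1 below, where 28.6% of all genes had such groups, 13.9% above and 14.7% below. The median log2 change of the 7 was 0.53, beside 0.01 over all genes. Both enzymes before the blocked step had the largest changes, 1.40 and 1.66, while the 5 enzymes after it had changes from -0.13 to 0.89.

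ACAT2 is the cytosolic acetoacetyl-CoA thiolase that starts the pathway. Its log2 values were 10.21, 10.15 and 10.23 with simvastatin, against 8.81, 8.81 and 8.77 with DMSO. Every simvastatin array lay more than a log2 unit above every DMSO array. The rise of 1.40 ± 0.05 (SE, n = 3 arrays per group), or 2.64-fold on the deposited scale, had an adjusted p of 4.77e-06 in limma and was the rank 6 rise of all 14884 genes.

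HMGCS1, the cytosolic HMG-CoA synthase, had log2 values of 9.71, 9.63 and 9.68 with simvastatin, against 8.01, 7.98 and 8.04 with DMSO. The arrays of each group were within 0.1 of one another and the groups were far apart. The rise of 1.66 ± 0.05 (SE, n = 3) had a 95% interval from 1.56 to 1.77. By limma's p it ranked 1 of 14884 genes, and by size 2.

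MVK, the kinase that first phosphorylates mevalonate, had log2 values of 6.16, 6.15 and 6.35 with simvastatin, against 5.85, 6.08 and 5.98 with DMSO. The groups did not overlap, but the closest arrays were less than 0.1 apart. The change of 0.25 ± 0.08 (SE, n = 3) did not pass the threshold (limma, adjusted p = 0.0851), with a 95% interval from 0.07 to 0.44. It passed only among genes above the median of all probesets (adjusted p = 0.0478).

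PMVK, the kinase of the next step, had log2 values of 6.15, 6.09 and 5.89 with simvastatin, against 6.16, 6.16 and 6.20 with DMSO. All simvastatin arrays were below all DMSO arrays, simvastatin replicate 3 by the most. The change of -0.13 ± 0.06 (SE, n = 3) missed the threshold (limma, adjusted p = 0.245). Its 95% interval from -0.28 to 0.01 lay below the changes measured for IDI1 and FDPS. The interval covers the signal of this probeset alone and is not adjusted for the number of genes. Over 19 alternatives the change ran from -0.18 to -0.06.

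MVD, the decarboxylase that makes isopentenyl diphosphate, had log2 values of 7.51, 7.42 and 7.37 with simvastatin, against 6.55, 6.53 and 6.57 with DMSO. The gap between the groups was far wider than the spread within either. Among the enzymes after the block it rose the furthest, by 0.89 ± 0.05 (SE, n = 3) or 1.85-fold (limma, adjusted p = 2.34e-05).

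IDI1, the isomerase that makes dimethylallyl diphosphate, had log2 values of 7.91, 8.11 and 8.24 with simvastatin, against 7.62, 7.65 and 7.61 with DMSO. All 3 treated arrays were higher, yet they were spread over a wider range (SD 0.16) than those of DMSO (SD 0.02). The rise was 0.46 ± 0.07 (SE, n = 3; limma, adjusted p = 0.00407).

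FDPS, which condenses these units into farnesyl diphosphate, had 2 probesets. The brighter one gave log2 values of 7.44, 7.23 and 7.21 with simvastatin, against 6.77, 6.83 and 6.70 with DMSO. The dimmer one gave 6.28, 6.36 and 6.27 with simvastatin, against 5.92, 5.89 and 6.07 with DMSO. Neither probeset had overlapping groups. By the brighter probeset the gene rose by 0.53 ± 0.08 (SE, n = 3; limma, adjusted p = 0.00390). The dimmer probeset differed by 0.35 ± 0.07 and was also called when all 53617 probesets were tested (limma, adjusted p = 0.0289).

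**Figure D2:**
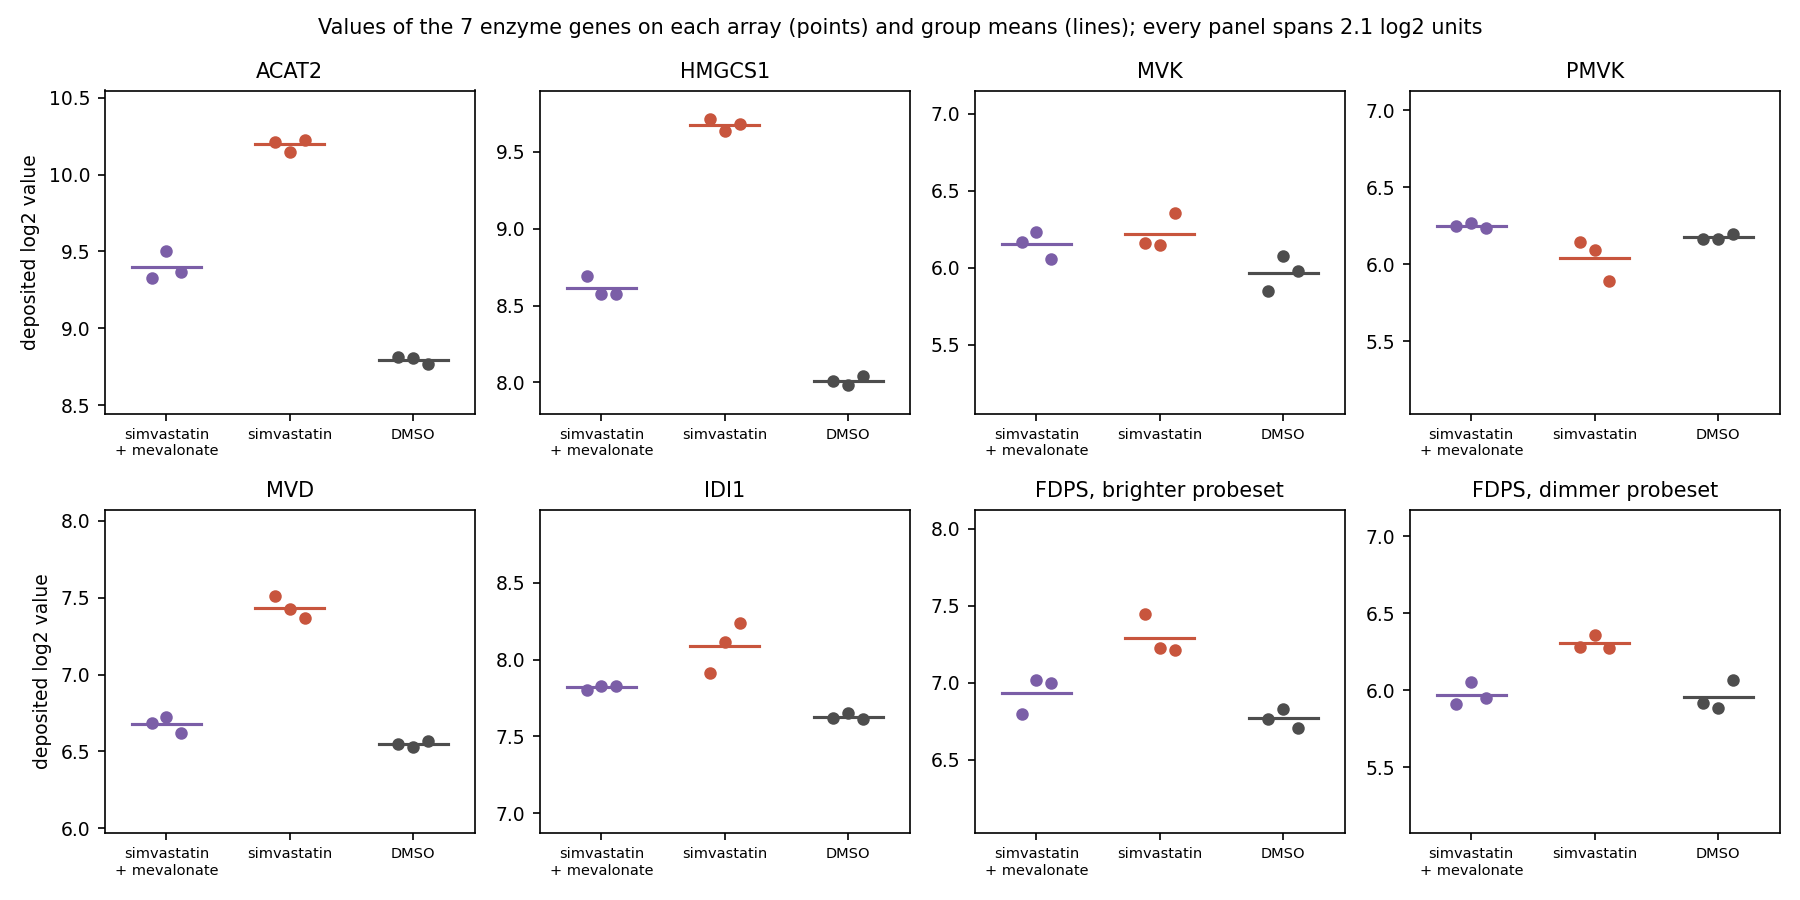
Deposited log2 value of each enzyme gene on each of the 9 arrays (points) with the mean of each group of 3 (lines), for simvastatin plus mevalonate, simvastatin and DMSO from left to right. Every panel spans the same 2.1 log2 units. ACAT2 and HMGCS1 separate into 3 levels, while MVK and PMVK stay within 0.6 of a log2 unit over all arrays.

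The next comparison asks what mevalonate added to simvastatin did, and uses the same simvastatin arrays. Of the 7 genes 4 fell (ACAT2, HMGCS1, MVD and FDPS) and 0 rose, where 11.0% of all genes were called, 5.72% lower and 5.31% higher. At an unadjusted p under 0.05, again without a share over all genes, 5 of the 7 were lower and 1 higher. The groups did not overlap for 6 genes, 5 of them below and 1 above, where 27.3% of all genes did not, 13.7% below and 13.6% above. The median log2 change of the 7 was -0.36, beside 0.00 over all genes.

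ACAT2 had log2 values of 9.32, 9.50 and 9.37 with simvastatin plus mevalonate, below every simvastatin array, and fell by 0.80 on the log2 scale (limma, adjusted p = 6.64e-05). HMGCS1 had 8.69, 8.58 and 8.58 with simvastatin plus mevalonate, and fell by 1.06 (limma, adjusted p = 1.31e-05). MVD had 6.68, 6.73 and 6.62 with simvastatin plus mevalonate, and fell by 0.76 (limma, adjusted p = 6.07e-05). For each of these genes the gap to the simvastatin arrays exceeded the spread within either group.

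FDPS gave 6.79, 7.02 and 6.997 with simvastatin plus mevalonate by its brighter probeset and fell by 0.36 ± 0.08 on the log2 scale (SE, n = 3; limma, adjusted p = 0.0274). That call was lost without simvastatin replicate 1 (adjusted p = 0.0659), without simvastatin plus mevalonate replicate 1 (0.0828) or 3 (0.0567), when all probesets were tested (0.0769), when only the groups compared were fitted (0.0713) and in 1 other alternative, while the change stayed between -0.40 and -0.28 in all 19. The dimmer probeset gave 5.91, 6.05 and 5.95 with simvastatin plus mevalonate, a difference of -0.33 that was called among all probesets (limma, adjusted p = 0.0386).

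IDI1 had 7.80, 7.83 and 7.83 with simvastatin plus mevalonate, below the lowest simvastatin array and nearly equal among themselves. Its change of -0.27 ± 0.07 (SE, n = 3) was just short of the threshold (limma, adjusted p = 0.0532). It was called in 4 of 19 alternatives. Without simvastatin replicate 1, the lowest of that group, it was -0.35 with an adjusted p of 0.00562. Over all 19 alternatives it ran from -0.35 to -0.19, with a limma adjusted p of up to 0.144.

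MVK had 6.17, 6.23 and 6.05 with simvastatin plus mevalonate, overlapping the simvastatin arrays (change -0.07, limma adjusted p = 0.669). PMVK had 6.25, 6.27 and 6.23 with simvastatin plus mevalonate, above every simvastatin array. Its change of 0.21 ± 0.06 (SE, n = 3) was not called (limma, adjusted p = 0.0822). It was called in 2 of 19 alternatives, 1 of them without simvastatin replicate 1 (adjusted p = 0.0438). Over all 19 the change ran from 0.13 to 0.26, with a limma adjusted p of up to 0.193. PMVK was thus the single gene of the 7 whose mean was lowest with simvastatin alone.

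**Figure D3:**
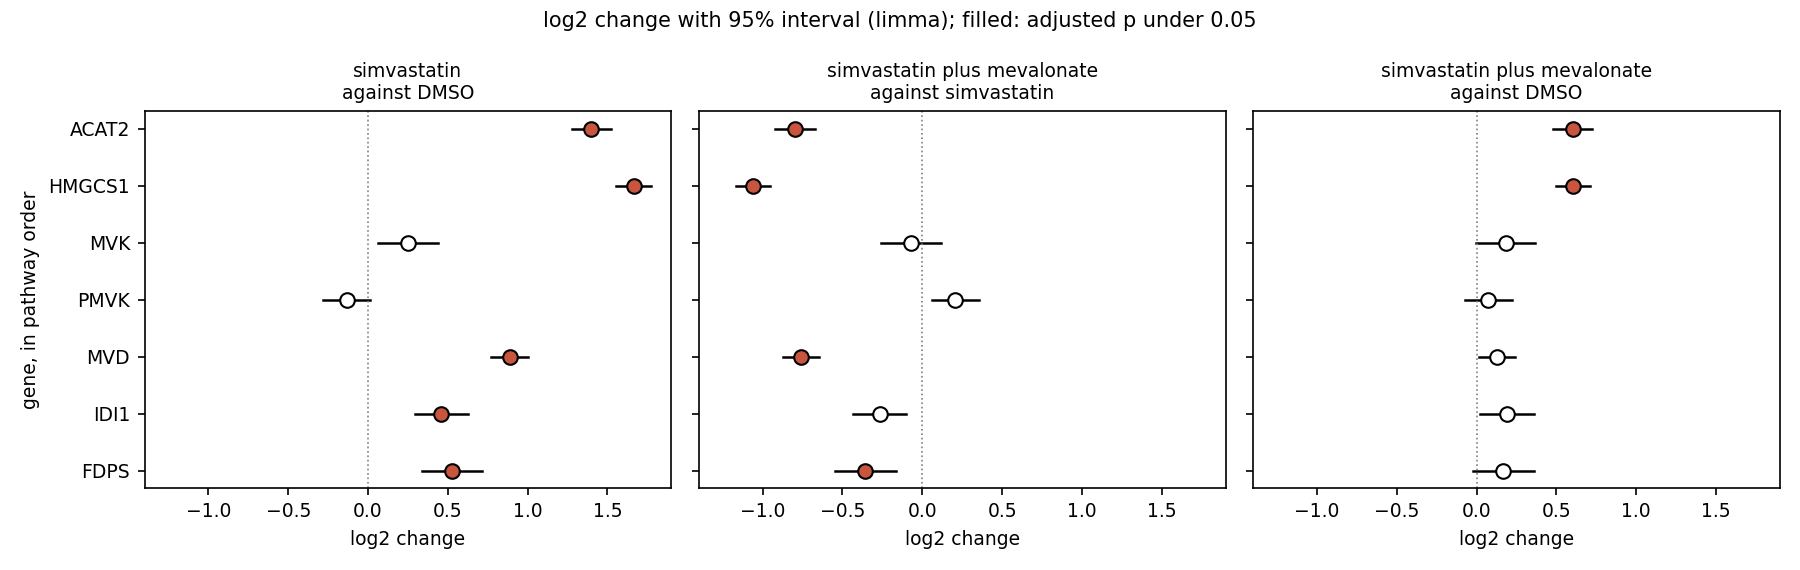
Log2 change (horizontal axis) of each gene in pathway order, with its 95% interval from limma, in the comparisons of simvastatin with DMSO, of simvastatin plus mevalonate with simvastatin, and of simvastatin plus mevalonate with DMSO. Filled points have an adjusted p under 0.05. In the right panel the points of ACAT2 and HMGCS1 are filled, at 0.60 each, and the other 5 are open.

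Simvastatin plus mevalonate was then set against DMSO. No group was given mevalonate alone, so simvastatin response that was left cannot be told apart from an effect of mevalonate itself. Few genes differed anywhere on the arrays. Of all genes 0.0739% were called, 11 in number, with 0.0336% (5 genes) higher and 0.0403% (6 genes) lower. ACAT2 and HMGCS1 were among those 5, beside PSAT1 and ASNS, which make serine and asparagine, and MSMO1, the methylsterol monooxygenase of cholesterol synthesis, whose call was lost in 9 of 19 alternatives.

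With simvastatin plus mevalonate, HMGCS1 was above DMSO by 0.60 ± 0.05 (SE, n = 3; limma, adjusted p = 0.0129). ACAT2 was above it by 0.60 ± 0.05 (limma, adjusted p = 0.0176). The lowest array with mevalonate was over 0.5 above the highest DMSO array for both genes. Both calls were lost without any 1 of the 3 DMSO arrays (adjusted p from 0.0560 to 0.0884) and without simvastatin plus mevalonate replicate 1 (0.0510), and that of ACAT2 also without replicate 3 (0.0663), while the log2 changes stayed between 0.55 and 0.64.

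The 5 enzymes after the block differed by 0.07 to 0.19 and had no call, though IDI1 and MVD had an unadjusted p under 0.05. IDI1 was at 0.19, MVK at 0.18, FDPS at 0.17 by its brighter probeset, MVD at 0.13 and PMVK at 0.07 (limma, adjusted p from 0.402 to 0.721). The dimmer FDPS probeset was at 0.01. All 7 means were above those of DMSO, and for 5 of the 7 genes the groups did not overlap, all 5 above. Over all genes the groups did not overlap for 16.5%, with 7.24% above DMSO and 9.22% below. MVK and FDPS were the genes with overlap.

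For the 5 genes that rose with simvastatin, the share of the rise that mevalonate returned was taken from the same group means, with Fieller's 95% interval. Without a group given mevalonate alone, this share also holds any separate effect of mevalonate. It was 57.0% (49.3 to 64.7) for ACAT2 and 63.7% (58.0 to 69.5) for HMGCS1. It was 85.5% (73.9 to 98.2) for MVD, the highest point estimate of the 5. IDI1 at 58.1% (25.2 to 93.5) and FDPS at 67.9% (36.2 to 105) were too imprecise to be placed. By the dimmer FDPS probeset the share was 96.3%. These intervals are not adjusted for the number of genes. Those of ACAT2 and HMGCS1 lay well short of a full return. Those of MVD and IDI1 also ended below it, though neither gene was called against DMSO (limma, adjusted p = 0.405 and 0.402), and the return of IDI1 was not called either. Differences between the genes' shares were not tested.

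**Figure D4:**
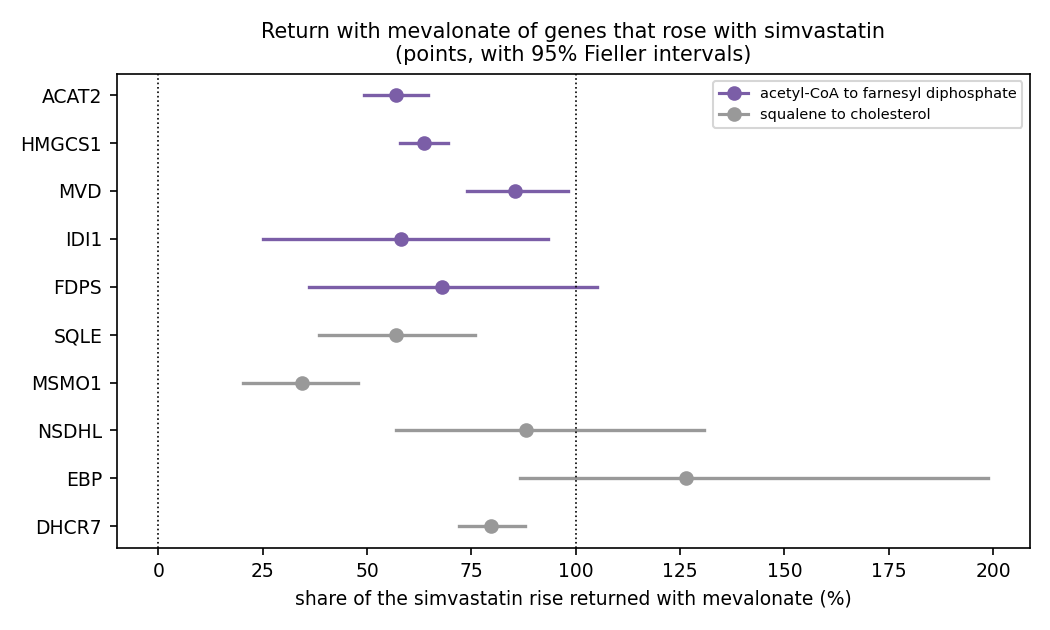
Percent of the simvastatin rise that was returned with mevalonate (points) with Fieller's 95% intervals (lines), for the enzymes from acetyl-CoA to farnesyl diphosphate and for squalene-to-cholesterol enzymes that rose. The dotted lines mark no return and a full return to the DMSO mean. MVD lies at 85.5% and MSMO1 at 34.4%.

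The order of the groups by mean was simvastatin, then simvastatin plus mevalonate, then DMSO for 6 of the 7 genes, PMVK being the other. In ACAT2, HMGCS1, MVD and IDI1 none of the neighbours in that order overlapped. In FDPS by its brighter probeset simvastatin stood apart and the other groups overlapped. In MVK simvastatin overlapped simvastatin plus mevalonate, which overlapped DMSO. By mean, PMVK ran from simvastatin plus mevalonate over DMSO to simvastatin, with no overlap between neighbours. Its closest arrays there were at 6.16 with DMSO and 6.15 with simvastatin. How many of all genes have such an order or separation was not counted, so these orders are descriptions only.

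Genes further along the pathway and beside it were described from lists. The counts below stand beside 13.4% of all genes called with simvastatin against DMSO, 5.98% higher and 7.38% lower. Of 7 measured squalene-to-cholesterol genes 5 rose with simvastatin against DMSO and 0 fell, with a median log2 change of 0.40. They were DHCR7 (2.02), which makes cholesterol from its last precursor, MSMO1 (0.81), SQLE (0.51), the squalene epoxidase, NSDHL (0.40) and EBP (0.36). All 5 fell with simvastatin plus mevalonate against simvastatin. Their returned shares were 79.7% for DHCR7, 34.4% for MSMO1, 56.9% for SQLE, 88.1% for NSDHL and 126% for EBP, a range that holds those of the 5 upstream enzymes.

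Genes that use farnesyl or geranylgeranyl groups were measured for 4 of 15 entries. With simvastatin against DMSO 0 were called (limma), nor did any have an unadjusted p under 0.05. Of all genes 13.4% were called, so 0 of 4 does not set these genes apart. Their log2 changes ran from -0.07 for ZMPSTE24, a protease of prelamin A, to 0.09 for DHDDS, a subunit of the enzyme that makes dolichol chains with NUS1. ICMT, which methylates prenylated proteins, was at -0.05 and NUS1 at 0.01. The median of the 4 was -0.02.

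Of 6 measured genes listed around the supply of acetyl-CoA, 2 rose with simvastatin against DMSO. They were ACSS2 (1.42 ± 0.11), which makes acetyl-CoA from acetate, and ACLY (0.26 ± 0.05), which makes it from citrate (limma, adjusted p = 0.000103 and 0.0104). The mitochondrial enzyme gene DLAT was at 0.10 and CS, which uses acetyl-CoA to make citrate, at -0.08, without a call. With simvastatin plus mevalonate against simvastatin, ACSS2 fell by 1.34 and ACLY by 0.30, and CS rose by 0.18, a call lost in 13 of 19 alternatives.

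Paralogs and ketone body genes were also listed. ACAT1, the mitochondrial thiolase, had a change of 0.09 with simvastatin against DMSO, and IDI2, another isomerase gene, one of -0.00, neither called. The IDI2 probeset averaged 4.24 with simvastatin and 4.24 with DMSO, below the median of all probesets, where a change may not be visible. HMGCLL1, a lyase that splits HMG-CoA, was at -0.01 and ACSS1, the mitochondrial counterpart of ACSS2, at 0.14. OXCT1, which uses ketone bodies, fell by 0.32 (limma, adjusted p = 0.0130), which was not called when its probesets were averaged (adjusted p = 0.406). In all 0 of 5 rose.

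Among 5 measured genes that control SREBP proteins, SREBF2 (0.65), which encodes the sterol-directed factor, and INSIG1 (0.55) and INSIG2 (0.30), which encode retention proteins, rose with simvastatin against DMSO. SREBF1, which encodes the related factor, was at -0.13 and SCAP, the escort of SREBP, at 0.04, without a call. SREBF2 and INSIG2 fell with simvastatin plus mevalonate against simvastatin, by 0.52 and 0.34. INSIG1 was returned by 28.5% (4.76 to 49.5) and its change of -0.16 was not called (limma, adjusted p = 0.144).

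**Figure D5:**
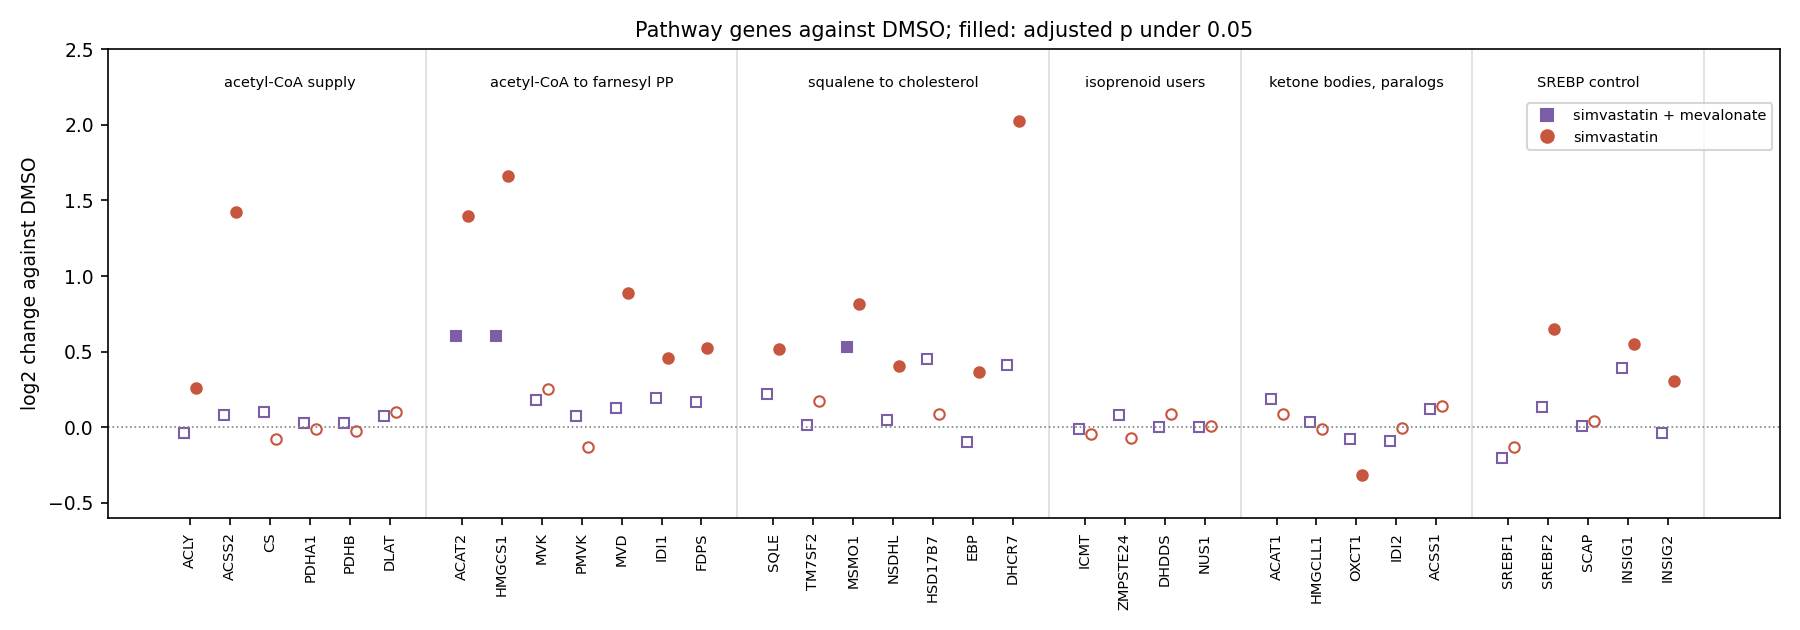
Log2 change against DMSO (vertical axis) of each measured gene in 6 lists, for simvastatin plus mevalonate (squares) and simvastatin (circles). Filled symbols have an adjusted p under 0.05. HMGCS1 and ACAT2 reach 1.66 and 1.40 with simvastatin, and the 4 isoprenoid users stay within 0.1 of 0.

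The nearest annotated gene on either side of each enzyme gene was looked up, and 6 of these 14 neighbours were measured. Of the 6, 0 were called with simvastatin against DMSO (limma), where 13.4% of all genes were, so this count does not set them apart. Log2 changes were 0.10 for NIM1K beside HMGCS1, -0.22 for PBXIP1 beside PMVK, and 0.13 for IDI2-AS1 and -0.00 for WDR37, which both overlap IDI1. At an unadjusted p under 0.05 SNAI3-AS1 alone was higher. MMAB, which overlaps MVK and makes the cobalamin cofactor adenosylcobalamin, differed by 0.07, and SNAI3-AS1, 281 bases from MVD, by 0.20 (adjusted p = 0.546 and 0.0812). SNAI3-AS1 was called only among genes above the median of all probesets (adjusted p = 0.0439). The MMAB promoter window covers part of the same stretch as that of MVK, and the sterol core lies on the other strand there.

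Genes whose values ran most like those of each enzyme were found by the mean absolute difference over the 9 arrays, after each gene was centred on its own mean. For ACAT2 they were ASNS (0.0833), the mTORC1 inhibitor gene DDIT4 (0.129) and HMGCS1 (0.132), against a median of 0.502 over all genes. For HMGCS1 they were ACAT2 (0.132), ACSS2 (0.186) and LONRF2 (0.194), against 0.608. For MVD they were STK40 (0.0304), NCR3LG1 (0.0390) and XBP1 (0.0497), against 0.366. These values describe 9 arrays in 3 treatments, so any gene with the same treatment means comes out as alike.

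For IDI1 the nearest were the fatty acid desaturase gene FADS1 (0.0299), RPF2 (0.0444) and the desaturase gene SCD (0.0501), against 0.183. For FDPS they were PTGFR (0.0519), PACS1 (0.0549) and CAMKV (0.0602), against 0.216. MVK and PMVK varied little over the arrays, and the median distance of other genes from them was smaller too. MVK was nearest to C19orf25 (0.0343), RPRML (0.0348) and MSANTD1 (0.0472), against 0.138, and PMVK to UROS (0.0254), ADCK1 (0.0272) and POLK (0.0283), against 0.116. The mean profile of the 7 genes was nearest to SARS1 (0.0254) and AARS1 (0.0285), which encode aminoacyl-tRNA synthetases, and to MTHFD1L (0.0421), a mitochondrial folate enzyme, against 0.270. MYADM, DDX25, ASS1, STC2, RFPL1S, PEX5L and TRIM66 followed, at 0.0520 to 0.0648.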

How the data were processed

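Total RNA from 9 samples was hybridised to 9 one-colour arrays. The authors deposited 1 log2 value per probeset and array, the scale being read from the values, which ran from 0.92 to 13.96. The submitters' processing notes name GCRMA (background correction and summary of probes) and HOMER without settings, and no source used here gives a genome build. Such processing can compress dim genes and hide a shift of all genes 1 way. Array number limits the precision.

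Of 53617 probesets, 16098 (30.0%) had 1 symbol in the platform annotation. The brightest probeset stood for a gene with several (779 genes), which left 14884. Groups were compared with limma 3.58.1 under R 4.3.3, by lmFit and eBayes, with 9 arrays in 1 fit of 3 group means (6 residual degrees of freedom), tested on simulated data, and adjusted by Benjamini-Hochberg over all genes at 0.05. Folds are log2 changes taken out of the log. Means, folds and errors are those of this fit unless every probeset is named. Descriptions and figures used Python 3.11.15, pandas 2.3.3 and matplotlib 3.10.9.

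The members, lists and motifs were chosen with earlier results of these data known. All members were named, then up to 4 genes per other list with the largest absolute change with simvastatin (all of the paralogs), measured nearest neighbours, and the 3 genes most like each member (10 for the mean profile). EBP, SCAP, PSAT1 and the markers of other cells were named after their values were seen. Alternatives were other normalization, probeset rules, filters, fits, a replicate block and leaving out each array.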

Additional observations from a re-analysis of the deposited data

How the results depend on the processing

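Over 19 alternatives and 3 comparisons, the 7 enzyme genes gave 399 log2 changes, all in the direction reported. In 20 of these a call was lost and in 7 one was gained. Filters, other fits, the test of every probeset and the replicate block left the log2 changes as they were. The direction was thus fixed in advance there, as it was without an array of the group not compared. No call with simvastatin against DMSO was lost.

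For simvastatin plus mevalonate against DMSO, 11 genes and 2 enzyme genes were called. Testing every probeset gave 7 of 53617 probesets, named or not, and 1 enzyme gene, so that the 7 are not a count of genes. Fitting only the groups compared gave 0 and 0. Genes above the median of all probesets gave 105, and eBayes with an intensity trend 225. Leaving out 1 array gave 0 to 12 genes and 0 to 2 enzyme genes. Same-numbered samples did not deviate together (r from -0.08 to 0.05). No label says whether the numbers pair samples, and these correlations cannot tell. With the replicate number as a block, counts were 0 and 0, and for simvastatin plus mevalonate against simvastatin the FDPS call was lost (adjusted p = 0.0717). The causes were not tested.

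For simvastatin plus mevalonate against simvastatin, 0 enzyme genes rose, but 1 (PMVK) did among genes above the median of all probesets, and 0 to 1 with an array left out. Of the 27 genes of the other lists 2 rose there. The count was 1 with quantile normalization, the mean over probesets, only the groups compared or robust eBayes, 0 with median centring, every probeset or the replicate block, and 0 to 2 with an array left out. Against DMSO 1 of them (MSMO1) was higher with simvastatin plus mevalonate, against 0 with every probeset, only the groups compared or the block, 3 above the median, 4 with the trend and 0 to 1 with an array left out. With the mean over probesets, 0 in place of 1 fell with simvastatin against DMSO.

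Signs turned only for uncalled genes. For simvastatin against DMSO quantile normalization gave 0.0111 for HMGCLL1 and 0.0170 for WDR37. With an array left out, the log2 changes ran from -0.209 to 0.101 for IDI2, -0.0290 to 0.0428 for NUS1, -0.0336 to 0.0187 for HMGCLL1 and -0.0225 to 0.0198 for WDR37. For simvastatin plus mevalonate against simvastatin they ran from -0.0437 to 0.0282 for NUS1, -0.0613 to 0.0252 for ACSS1, -0.193 to 0.117 for IDI2, -0.124 to 0.00813 for SREBF1, -0.115 to 0.0860 for IDI2-AS1 and -0.0105 to 0.0309 for WDR37. For simvastatin plus mevalonate against DMSO they ran from -0.00981 to 0.104 for NSDHL, -0.0452 to 0.0550 for DHDDS, -0.0196 to 0.0185 for NUS1 and -0.0142 to 0.0352 for WDR37. In that comparison quantile normalization gave 0.0122 for DHDDS and 0.000172 for NUS1, median centring -0.00484 for WDR37, and the mean over probesets 0.0214 for OXCT1.

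The dimmer FDPS probeset and the motifs were chosen after seeing the data. CCAAT on 1 strand alone occurred in 19.6% of all windows. MVK and PMVK lie about a log2 unit above the median of all probesets, and whether low signal hid a change in them was not tested. Their DMSO means were 5.97 and 6.18. The 3 arrays per group limit every interval.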
